A study of Danio rerio with 8 samples.

Results

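The libraries described here profile the wild-type ventricular epicardium of the juvenile zebrafish. They are the 4 wild-type libraries among the 8 libraries of the series, chosen by their genotype label, and are called WT 1 to WT 4 after their titles. All came from Tg(tcf21:nEGFP) fish at 70 days post-fertilization, chosen for similar body size, in which the tcf21 reporter places a green fluorescent protein in the nucleus. Ventricles were dissociated, the fluorescent cells were sorted, and their RNA was amplified and sequenced in bulk. The other 4 libraries came from cxcr4a mutants that carry the same reporter, and they were not used for any value below. The reporter decides which cells enter the profile, so the profile covers every cell in the sort gate, whatever its type. The sources used here do not say whether a library came from 1 fish or from a pool, so the spread among the 4 libraries may be partly technical.

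The epicardium is the mesothelial layer on the outside of the heart. Its cells rest on a basement membrane and secrete matrix and signals to the myocardium and the coronary vessels. In development some of them leave the layer and become fibroblasts and mural cells, the contractile and supporting cells of vessel walls. In zebrafish the layer is also known for its response to heart injury, and tcf21, tbx18 and wt1b, which encode transcription factors, are its usual markers.

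A level is given in CPM, the counts of a gene per 1000000 counts of its library. Runs of 4 values are in the order WT 1, WT 2, WT 3 and WT 4, and errors are SD with n = 4. A gene is called expressed where it had 1 CPM or more in all 4 libraries. By that rule 12762 of 37685 gene symbols were expressed, which is 33.9%, and 13197 symbols had 0 counts in all 4 libraries. Another 4152 symbols reached 1 CPM in 1 to 3 libraries. At the threshold, LOC137496108 was just inside with 1.02 CPM in its lowest library, and prr18 was just outside with 0.983 CPM. Of the expressed symbols, 12164 were protein-coding genes and 95 were long noncoding RNA genes in RefSeq. The median expressed symbol had a mean of 21.0 CPM, and the median of all symbols was 0.181 CPM. For each gene list, the median in parentheses is over the mean levels of all members that have a row, expressed or not. Each count of expressed members is to be read beside the 33.9% of all symbols that were expressed. Over the lists the share ran from 18.2% for neural and Schwann cell genes to 91.1% for endoplasmic reticulum chaperone genes. Longer transcripts collect more counts, and no transcript lengths were used here, so an order of genes by CPM is an order of counts and not of molecules.

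The libraries held 19584695 to 28471786 counts and 15881 to 17520 symbols with 10 or more counts each. Every one of the 6 pairs of libraries differed beyond counting noise, with a chi-square per degree of freedom of 109 to 628, so no table holds another's counts over again. Separate amplifications of the same RNA would also exceed counting noise, so this does not show that the libraries came from separate samples. WT 1 held the largest share of mitochondrially encoded RNA, and WT 2 was also above WT 3 and WT 4. The 15 mitochondrially encoded genes took 30.8% of counts in WT 1, 14.9% in WT 2, 5.98% in WT 3 and 5.95% in WT 4. Most of that was mt-rnr2, the large mitochondrial ribosomal RNA, at 210360.0, 97986, 37613 and 37999 CPM. The share of the 10 most counted genes was 35.4%, 21.1%, 12.4% and 12.4%, and without mitochondrially encoded genes it was 12.19%, 11.09%, 9.44% and 9.66%. A high mitochondrial share lowers the CPM of all other genes in that library. Scaling by TMM factors, which are computed from the bulk of the genes, shifted all levels by 0.30 in WT 1, 0.03 in WT 2, -0.21 in WT 3 and -0.11 in WT 4 on the log2 scale. Of the 12762 expressed genes, 5999 were lowest in WT 1 under total counts and 3719 under TMM factors. The counts by library given below are therefore stated with the range over the 3 other scalings wherever it differs. They are to be read beside the shares over all expressed genes. Under total counts, WT 1, WT 2, WT 3 and WT 4 were the highest library for 10.9%, 21.6%, 37.3% and 30.2% of these, and the lowest for 47.0%, 20.9%, 10.8% and 21.3%. Under the other scalings each library was highest for 18.99% to 28.8% and lowest for 16.5% to 29.9%.

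A second limit concerns 6260 symbols that the deposited tables carry on more than 1 row, told apart by an added number. Their rows were summed, and 28.7% of them were expressed, against 34.9% of symbols on 1 row. Ribosomal protein genes, which every cell uses, show what this means. All 65 that sit on 1 row were expressed, but only 8 of the 17 on several rows. rps13, a protein of the small subunit, had 1, 1, 2 and 0 counts, and rpl9, of the large subunit, had 2, 1, 5 and 5. Both were named after their values were seen. All 44 endoplasmic reticulum chaperone genes on 1 row were expressed and 7 of the 12 on several rows. For a symbol on several rows, a low or 0 value therefore cannot be read as a lack of transcript. Among genes with levels below, this holds for mbpb, tpm4a, tcf21, nid1a, krt4, krt8, cdh2, actb1, rbp2a, cxcl12b, pdgfra, igf2b, rgs5a, kdrl and lrp1ab. The same limit holds for tnfaip6, mpl and lyz, and the text says so for genes given in counts.

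**Figure D1:**
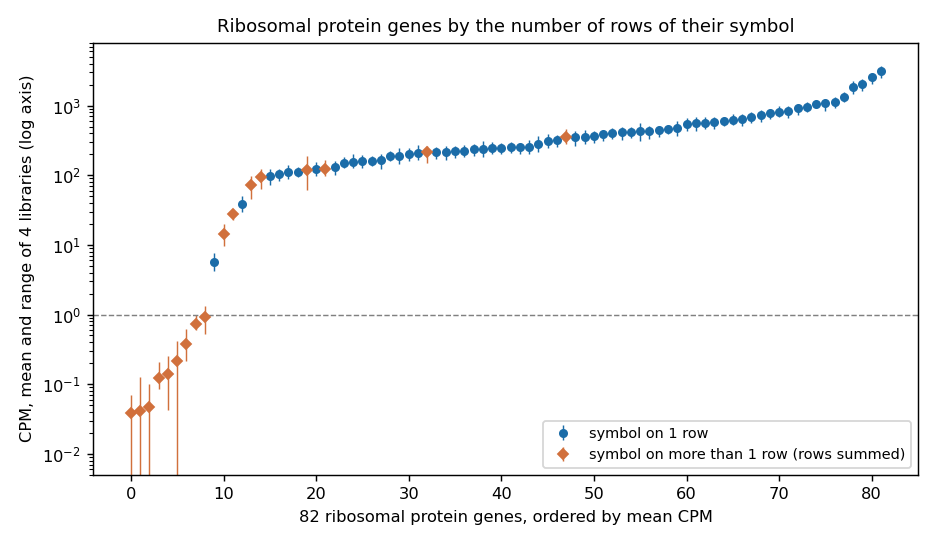
Mean CPM of 82 ribosomal protein genes on a log axis, ordered by mean, with a bar from the lowest to the highest of the 4 wild-type libraries; a bar that reaches the bottom edge includes a library with 0 counts. All 9 genes that were under 1 CPM in some library, left of the step, have a symbol on more than 1 row.

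The 3 marker genes of the epicardium were counted in every library. tcf21, whose reporter was used for the sort, was at 115, 124, 112 and 78.4 CPM, summed over 2 rows. tbx18 was at 808, 1092, 764 and 578 CPM. wt1b was at 87.4, 93.7, 81.98 and 154 CPM, and wt1a, its paralog, at 69.5, 84.0, 55.7 and 66.9 CPM. WT 4 was the lowest library for tcf21 and tbx18 and the highest for wt1b. The means were 107 ± 20.03 CPM for tcf21, 810.3 ± 212 CPM for tbx18 and 104 ± 33.7 CPM for wt1b. All 3 genes thus counted as expressed. Since the cells were sorted on the tcf21 reporter, the tcf21 level follows from the sort and is no separate support for the label.

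Of a list of epicardial markers, 22 of 27 (median 124 CPM) were expressed, against 33.9% of all symbols. This list holds genes known in the tissue, and the other lists hold known genes of a cell type, family or process. A high share thus follows from how a list was made and is not a finding. Beside the fibronectin and keratin genes described below, the epicardial list held podxl, a sialomucin of the free surface of mesothelium. Its level was 664, 911, 452 and 576 CPM. dpt, which encodes the matrix protein dermatopontin, was at 795, 280.4, 305 and 223 CPM, highest in WT 1. bnc1, a zinc finger gene of mesothelium, was at 147, 202, 121 and 55.8 CPM. aldh1a2, the retinoic acid synthesis gene often used as an epicardial marker, had only 5, 6, 3 and 4 counts. It sits on 2 rows, so the value carries the limit above. wt1a, podxl, dpt, bnc1 and aldh1a2 were named after their values were seen.

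Of transcription factor genes of mesoderm and mesenchyme, 70 of 89 (median 29.3 CPM) were expressed. The 4 with the most counts were cebpa, cebpb, tbx18 and cebpd, and the cebp genes encode CCAAT/enhancer binding proteins. cebpa was at 902, 1488, 809 and 792 CPM, where WT 2 lay far above the other libraries. cebpb was at 767, 542, 1338 and 1005 CPM and cebpd at 847, 938, 555 and 793 CPM. After their values were seen, several members of the list were singled out for their values or their role. gata5, a cardiac GATA factor gene, was at 408, 472, 453 and 468 CPM, a coefficient of variation (SD divided by mean) of 0.0652 under total counts and 0.0942 to 0.116 under the other scalings, and its relative gata6 was at 189, 302, 234 and 269.7 CPM. gata4, the third cardiac GATA gene, was at 7.61, 11.5, 4.14 and 1.99 CPM. hand2, a factor of heart and epicardium development, was uneven at 87.7, 133, 307 and 221 CPM. snai2 and twist1a are known for their part in epithelial to mesenchymal transition. snai2 was at 155, 174, 197 and 179 CPM, and twist1a was at 90.6, 111, 87.1 and 89.8 CPM.

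**Figure D2:**
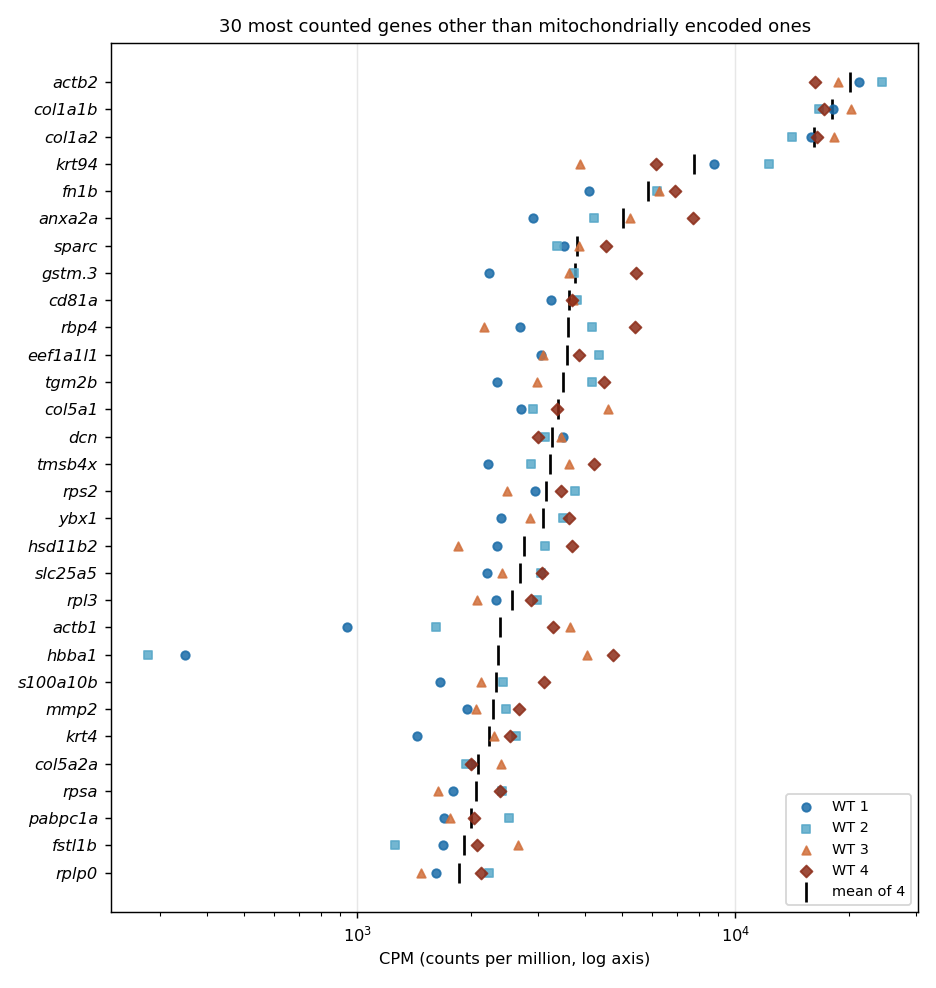
CPM on a log axis of the 30 genes with the most counts other than mitochondrially encoded ones, with each of the 4 wild-type libraries as a point and the mean as a bar. actb2, col1a1b and col1a2 stand above the rest in all 4 libraries, and hbba1 is split, with WT 1 and WT 2 at 349.6 and 278 CPM and WT 3 and WT 4 at 4038 and 4741 CPM.

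By counts, the profile was led by cytoskeleton and matrix genes. The 30 genes with the most counts outside the mitochondrial genome held 14.1% of all counts on average. actb2, a cytoplasmic actin gene, came first at 21278, 24383, 18672 and 16261 CPM. col1a1b and col1a2, which encode chains of type I collagen, came next. col1a1b was at 18090.1, 16663, 20234 and 17118 CPM and col1a2 at 15848, 14144, 18229 and 16485 CPM. Together these 2 collagen genes took 3.42% of counts, and their sum differed by 1.25-fold between the highest and the lowest library. fn1b, a fibronectin gene of place 5, was at 4092, 6206, 6259 and 6934 CPM. sparc, a collagen-binding glycoprotein gene of place 7, was at 3515, 3374, 3855 and 4535 CPM. Among the other genes in the first 30 were rbp4, anxa2a, gstm.3, cd81a, hsd11b2 and tgm2b. anxa2a encodes an annexin and stood at 2916, 4225, 5254 and 7743 CPM. Its binding partner gene s100a10b was at 1657, 2424, 2127 and 3119 CPM, with the highest level of both in WT 4. hsd11b2, the enzyme that inactivates cortisol, was at 2337, 3137, 1841 and 3692 CPM. Under total counts cd81a, a tetraspanin gene, was the most even of the 30 with 3618 ± 245 CPM.

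Of collagen chain genes, 22 of 42 (median 4.93 CPM) were expressed, 52.4% beside 33.9% of all symbols. The list summed to 48281 ± 5533 CPM or 4.83% of counts. Beyond type I, the largest counts were those of type V, which joins type I in fibrils. col5a1 was at 2706, 2916, 4599.6 and 3379 CPM and col5a2a at 1999, 1934, 2401 and 2000.2 CPM. Type VI chains form beaded filaments, and col6a1 was at 1362, 1097, 1964 and 1355 CPM. col18a1b, a basement membrane collagen gene, was at 2172, 1378, 2228 and 1321 CPM. Both col6a1 and col18a1b were named after their values were seen. WT 3 was the highest library for 17 of 22 expressed collagen genes under total counts, but for 7 to 9 of 22 under the other scalings, where WT 1 was highest for 10 or 11, so no library led under every scaling, and WT 3 was also highest for 37.3% of all expressed genes under total counts. col1a1a, the paralog of col1a1b, had 16, 13, 22 and 8 counts on 2 rows, again under the limit of repeated symbols.

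Of basement membrane genes, 24 of 32 (median 63.1 CPM) were expressed. Their sums were close, at 12798, 12216, 13959.9 and 12073 CPM, but under TMM factors WT 1 was above the others, at 15709, 12456, 12060 and 11166. lama4, a laminin chain, was at 1765, 1713, 1693 and 1287 CPM, with WT 4 below the others. col4a1 encodes a chain of the network-forming type IV collagen and was at 1610.1, 1487, 1445 and 892 CPM. nid1a encodes nidogen, a linker of laminin and type IV collagen, and was at 988, 976, 1444 and 1230.4 CPM. Proteoglycan and matrix glycoprotein genes were expressed in 43 of 66 (median 44.0 CPM) cases. dcn, which encodes the small proteoglycan decorin, was at 3491, 3138, 3459 and 3004 CPM, with a coefficient of variation of 0.0734, or 0.198 to 0.204 under the other scalings. postnb, a periostin gene, was at 1478, 1846, 1182 and 1805 CPM.

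Some matrix genes were unlike these in their spread. elnb, an elastin gene, was at 1.96, 0, 504 and 487 CPM, and acana, an aggrecan gene, was at 0, 0, 145 and 149 CPM. Neither counted as expressed, and in both WT 3 and WT 4 held nearly all counts. The other elastin gene, elna, was at 9.27, 9.07, 43.1 and 31.2 CPM. loxa, whose enzyme cross-links elastin and collagen, was at 10.4, 12.3, 152 and 206 CPM. These 4 genes were named after their values were seen.

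Hyaluronan is the long sugar polymer of heart matrix, and 13 of 20 (median 16.7 CPM) of its genes were expressed. hapln1a, which encodes a link protein between hyaluronan and proteoglycans, was at 1905, 931, 1974 and 929 CPM. WT 1 and WT 3 were the high libraries, with a ratio of 2.12 from highest to lowest. The synthase gene has2 was at 24.4, 8.73, 30.5 and 12.8 CPM and the receptor gene cd44b at 24.5, 11.07, 37.2 and 15.5 CPM, both named after their values were seen. Both had WT 1 and WT 3 above WT 2 and WT 4, as hapln1a had. cemip, whose protein breaks hyaluronan down, had its highest library in WT 2 at 348, 495, 273 and 347 CPM.

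Of protease and inhibitor genes, 48 of 62 (median 53.0 CPM) were expressed. mmp2, a matrix metalloproteinase gene, was at 1946, 2474, 2054 and 2669 CPM. pcolcea, which encodes an enhancer of procollagen cleavage, was at 1294, 1912, 968 and 1149 CPM. serpinf1, a secreted serpin gene, was at 896, 601, 878 and 1015 CPM, and adam10a, a membrane shedding protease gene, at 802, 713, 455 and 542 CPM.

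Keratins and junction genes mark the epithelial side of the epicardium. Of these, 37 of 68 (median 4.81 CPM) were expressed, 54.4% beside 33.9% of all symbols. krt94, a type I keratin gene, had the largest count of the list and was uneven at 8754, 12246, 3875 and 6149 CPM. krt4 was at 1435, 2620.4, 2301 and 2533 CPM, krt8 at 1527, 2359, 1358 and 1602 CPM and krt91 at 2474, 1524, 779 and 902 CPM. The order of the libraries was not shared between keratins, since krt94 and krt8 were highest in WT 2 and krt91 in WT 1. Of the 37 expressed members, 21 were highest in WT 2 under total counts and 22 to 23 under the other scalings, beside 21.6% and 22.4% to 25.9% of all expressed genes. cdh2, the N-cadherin gene, was at 805, 886, 883 and 749.8 CPM, whereas cdh1, the E-cadherin gene, was near the threshold at 1.06, 5.96, 1.3 and 2.96 CPM. Both cadherins were named after their values were seen.

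The actin genes differed from each other. actb1 was at 941, 1613, 3657 and 3293 CPM, a 3.89-fold range, while actb2 had a 1.499-fold range. The sum of the 2 genes was 22218, 25996, 22329 and 19554 CPM. The products of these genes are nearly identical in sequence, so how reads were divided between them is uncertain. tmsb4x, the thymosin beta 4 gene known in mouse for its role in epicardial cells, was at 2214, 2872, 3619 and 4213 CPM. Of cytoskeleton and contractile genes, 52 of 61 (median 126 CPM) were expressed, and 33 were lowest in WT 1 under total counts, against 22 to 24 under the other scalings, beside 47.0% and 28.8% to 29.6% of all expressed genes. Integrins and matrix receptors were expressed in 34 of 54 (median 20.4 CPM) cases. itga5, the fibronectin receptor subunit, was at 667, 886, 990.0 and 893 CPM and its partner itgb1a at 650.0, 718, 659 and 569 CPM. sdc4, a syndecan gene, was at 623, 664, 716 and 701 CPM.

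Retinoic acid genes were expressed in 20 of 31 (median 8.63 CPM) cases. rbp4, which encodes the carrier of retinol in blood, held most of their counts at 2697, 4173, 2157 and 5439 CPM. rarga, a retinoic acid receptor gene, was at 213, 162, 199.9 and 175 CPM. crabp1a and rbp5 encode proteins that bind retinoids inside cells. crabp1a was at 98.2, 150.4, 131 and 214 CPM, and rbp5 was at 93.6, 167, 101 and 133 CPM. rbp2a, a cellular retinol-binding protein gene on 2 rows, was one of the 10 genes of largest spread at 18.2, 42.8, 1.02 and 1.07 CPM. It was the one gene of those 10 with its counts in WT 1 and WT 2.

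Of ligand genes, 38 of 91 (median 1.96 CPM) were expressed, 41.8% beside 33.9% of all symbols. mdka, the gene of the heparin-binding growth factor midkine, was at 1104, 1072, 1133 and 1132 CPM, with a coefficient of variation of 0.0260 under total counts and 0.143 to 0.147 under the other scalings. Its paralog mdkb was at 570.3, 654, 598 and 741 CPM. adma, which encodes the vessel-relaxing peptide adrenomedullin, was uneven at 661, 1785, 522 and 362 CPM, highest in WT 2. vegfaa, a vessel growth factor gene, was at 144, 198, 238 and 84.3 CPM. The chemokine genes cxcl12a and cxcl12b encode the ligands of Cxcr4 receptors. cxcl12a was at 93.2, 69.9, 90.5 and 101 CPM, and cxcl12b was at 41.0, 39.3, 48.9 and 26.3 CPM. cxcr4b, a receptor gene, was at 364, 131, 539 and 356 CPM, and cxcr4a, the gene mutated in the libraries not used here, at 9.31, 0.511, 4.14 and 1.38 CPM. vegfaa, the cxcl12 genes and cxcr4a were named after their values were seen.

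Receptor genes were expressed in 55 of 81 (median 16.97 CPM) cases. fgfr4, a fibroblast growth factor receptor gene, was at 550.1, 639, 505 and 370.4 CPM, and nrp1a, a neuropilin gene, at 439.6, 609, 501 and 429.6 CPM. pdgfrb, a receptor gene shared by epicardium and mural cells, was at 575, 385, 479 and 377 CPM. pdgfra, the receptor gene of fibroblasts, was lower in counts and uneven at 103, 47.2, 62.6 and 14.4 CPM, with WT 4 the lowest.

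Of Wnt genes, 37 of 75 (median 4.28 CPM) were expressed, 49.3% beside 33.9% of all symbols. Those with the most counts act outside the cell or at the pathway's core. frzb, a secreted antagonist, was at 657, 940.1, 645 and 952 CPM. ctnnb1, the beta-catenin gene, was at 566, 805, 873 and 807 CPM. dkk3b, of the dickkopf family, was at 456, 778, 742 and 749 CPM. rspo3, which encodes a secreted enhancer of Wnt signalling, was at 510.4, 1125, 486 and 499 CPM, with WT 2 above each other library. Of TGF-beta and BMP genes, 55 of 79 (median 23.6 CPM) were expressed. fstl1b, a follistatin-like gene, was at 1687, 1255, 2663 and 2069 CPM. ltbp3, whose protein holds latent TGF-beta in the matrix, was at 512, 559, 786 and 668 CPM. id1, a target gene of BMP signals, was at 376, 440.3, 292 and 431 CPM.

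Notch genes were expressed in 22 of 34 (median 9.21 CPM) cases. notch2, a receptor gene, was at 167, 322, 297 and 187 CPM, and the ubiquitin ligase gene mib1 was at 67.9, 105, 179 and 115 CPM. The ligand gene jag1b was at 101, 73.2, 151 and 54.6 CPM. Of genes for IGF binding and insulin-like peptides, 13 of 23 (median 15.15 CPM) were expressed, 56.5% beside 33.9% of all symbols. igfbp5b, a binding protein gene, was at 531, 585, 391 and 516 CPM. pappaa, whose protease frees IGF from binding proteins, was at 70.0, 142, 125 and 202 CPM, and igf2b at 136, 87.9, 103 and 138 CPM. Guidance genes were expressed in 24 of 37 (median 7.83 CPM) cases. sema3d, a secreted semaphorin gene, was at 219, 225, 161 and 152 CPM and the ephrin gene efna1b at 153, 137, 93.8 and 150.4 CPM.

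Of complement and acute phase genes, 12 of 43 (median 0.178 CPM) were expressed, 27.9% beside 33.9% of all symbols. On 1 row it was 9 of 29, or 31.0% beside 34.9% of such symbols, and 11 of the members under the threshold are on several rows. tfa, the transferrin gene, was at 1248, 1509.7, 681 and 829 CPM, and the complement gene c7a was at 793, 745, 676 and 522 CPM. c4 and c4b encode complement proteins, are related in sequence and may share reads. c4 was at 541, 646, 154 and 84.3 CPM, and c4b was at 514, 829, 181 and 243 CPM. WT 1 and WT 2 were above WT 3 and WT 4 in c4, c4b, tfa and c7a.

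**Figure D3:**
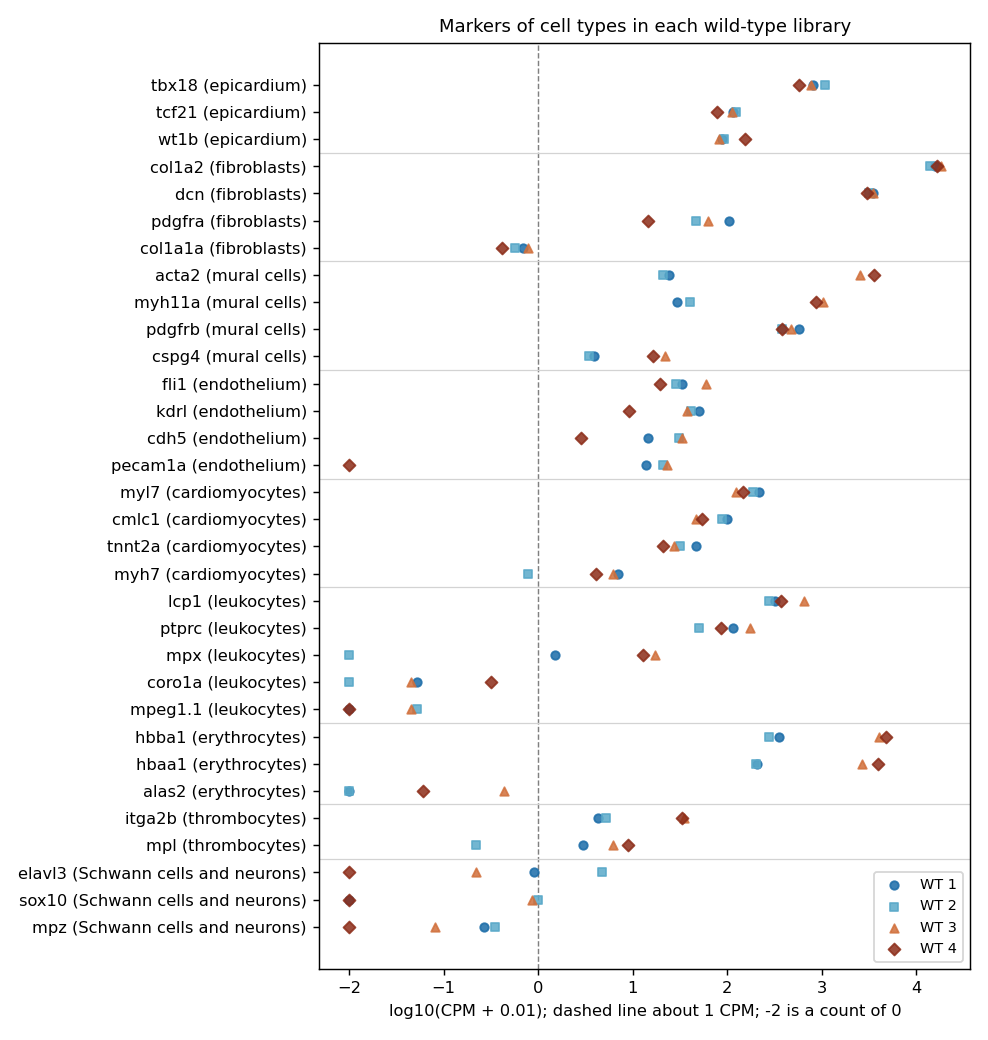
Level of cell type markers in each of the 4 wild-type libraries, as log10(CPM + 0.01), where -2 is a count of 0 and the dashed line is about 1 CPM. The 3 epicardial markers lie between 78.4 and 1092 CPM in all libraries, while acta2, myh11a, hbba1 and hbaa1 split by library.

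Markers of other cell types were present at unequal levels. In bulk RNA, fewer cells of a type and less RNA per cell cannot be told apart. Contractile mural cell genes differed widely between libraries. acta2, the smooth muscle actin gene, was at 24.3, 20.8, 2568 and 3545 CPM. myh11a, the smooth muscle myosin gene, was at 29.5, 40.0, 1037 and 879 CPM. rgs5a, a regulator of G protein signalling known in pericytes, was at 47.4, 53.0, 656 and 661 CPM. WT 3 and WT 4 were above WT 1 and WT 2 in all 3 genes, with ratios of highest to lowest of 170.3 for acta2, 35.1 for myh11a and 13.9 for rgs5a. pdgfrb, which marks mural cells too, did not follow them and was highest in WT 1. cspg4, another mural marker, was at 3.91, 3.45, 21.7 and 16.6 CPM. The whole mural list summed to 979.7, 758, 5635 and 6338 CPM, with 13 of 19 (median 40.3 CPM) expressed.

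Globin genes too were higher in WT 3 and WT 4 than in WT 1 and WT 2. hbba1, an adult beta globin gene, was at 349.6, 278, 4038 and 4741 CPM. hbaa1, an adult alpha globin gene, was at 205, 202, 2680.5 and 3915 CPM. The 4 adult globin genes hbaa1, hbaa2, hbba1 and hbba2, which may share reads, summed to 652, 632, 8481 and 12679 CPM. slc4a1a, the anion exchanger gene of erythrocytes, was picked for its values and was at 35.5, 19.7, 651 and 561 CPM. itga2b, an integrin gene of thrombocytes, was at 4.34, 5.195, 34.5 and 33.4 CPM. The list of erythrocyte and thrombocyte genes summed to 1009, 1006, 11112 and 15314 CPM. Of its members 17 of 30 (median 17.2 CPM) were expressed, 56.7% beside 33.9% of all symbols. alas2, an enzyme of haem synthesis, had 0, 0, 12 and 1 counts on 2 rows. The part of blood cells in any other level was not tested.

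Most endothelial genes were lowest in WT 4. kdrl, a vessel growth factor receptor gene, was at 50.2, 41.0, 37.3 and 9.04 CPM. cdh5, the cadherin gene of endothelium, was at 14.4, 30.6, 33.3 and 2.81 CPM. pecam1a, an adhesion molecule gene, was at 13.7, 20.7, 23.0 and 0 CPM, where 0 counts allow up to 0.153 CPM at 3 counts per library. fli1, a transcription factor gene of endothelium, was at 33.7, 29.1, 59.6 and 19.6 CPM. Of the 33 expressed endothelial genes, 22 were lowest in WT 4, and 23 to 25 under the other scalings, beside 21.3% and 26.1% to 29.9% of all expressed genes. cd34, the list's gene with the most counts, is also known outside endothelium and was at 787, 626, 883 and 689 CPM. flt4, a receptor gene of vessels and lymphatics, was an exception, highest in WT 4 at 41.6, 117, 111 and 143 CPM. The list summed to 2014, 1982, 2479 and 1558 CPM, with 33 of 46 (median 15.6 CPM) expressed.

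Cardiomyocyte genes were expressed in 24 of 40 (median 6.57 CPM) cases and summed to 2151, 1729.5, 1457 and 1130.1 CPM. myl7, the atrial and ventricular myosin light chain gene of zebrafish, was at 219, 188, 124 and 146 CPM. mb, the myoglobin gene, held much of the sum at 1313, 876, 634 and 287 CPM, and actc1a was at 99.0, 86.1, 78.9 and 98.0 CPM. tpm4a, a tropomyosin gene on 2 rows, was higher in WT 3 and WT 4, at 81.95, 92.5, 194 and 245 CPM. tnnt2a, the cardiac troponin T gene, was at 46.6, 32.1, 27.7 and 20.9 CPM. myh7, listed under its older name vmhc as the ventricular myosin gene, was at 7.06, 0.766, 6.15 and 4.14 CPM.

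Of leukocyte genes, 29 of 55 (median 7.84 CPM) were expressed, 52.7% beside 33.9% of all symbols. The list summed to 3764, 3456, 6655 and 4709 CPM. cd74a, a partner of class II antigen-presenting molecules, was at 847, 579, 1943 and 1486 CPM. lcp1, an actin-bundling protein of leukocytes, was at 319, 277, 649.9 and 372 CPM. ptprc, the pan-leukocyte CD45 gene, was at 116, 50.9, 175 and 85.4 CPM. WT 2 was the lowest library in each of these 3 genes and in 18 of the 29 expressed members under every scaling, beside 20.9% to 24.8% of all expressed genes. mpx, the neutrophil peroxidase gene, was at 1.49, 0, 17.1 and 12.7 CPM. mpeg1.1, a macrophage gene on 2 rows, had 0, 1, 1 and 0 counts, and coro1a, also on 2 rows, had 1, 0, 1 and 6.

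Of neural and Schwann cell genes, 6 of 33 (median 0.592 CPM) were expressed, 18.2% against 33.9% of all symbols. Of the defining markers, sox10, a Schwann cell and neural crest factor gene, had 0, 23, 24 and 0 counts, elavl3, a gene of neurons, had 21, 112, 6 and 0, and the myelin gene mpz had 6, 8, 2 and 0 on 3 rows. None reached 1 CPM in all libraries, but elavl3 reached 4.77 CPM in WT 2, so they were low and not uniformly absent. Other members were counted in every library. mbpb, a myelin basic protein gene on 2 rows, was at 62.0, 69.7, 42.4 and 55.4 CPM. tubb5, a tubulin gene, was at 35.9, 93.6, 164 and 112 CPM and snap25a, of the vesicle fusion machinery, at 20.03, 11.6, 17.5 and 11.3 CPM. elavl4, another gene of neurons, was at 7.36, 18.1, 9.59 and 5.31 CPM. The list summed to 157 to 267 CPM per library.

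Fibroblast genes overlap with the matrix genes above and were expressed in 24 of 28 (median 197 CPM) cases. Their sums were 56451, 55425, 66549 and 61744 CPM, or 69295, 56512, 57493 and 57103 under TMM factors, so the highest library depended on the scaling.

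**Figure D4:**
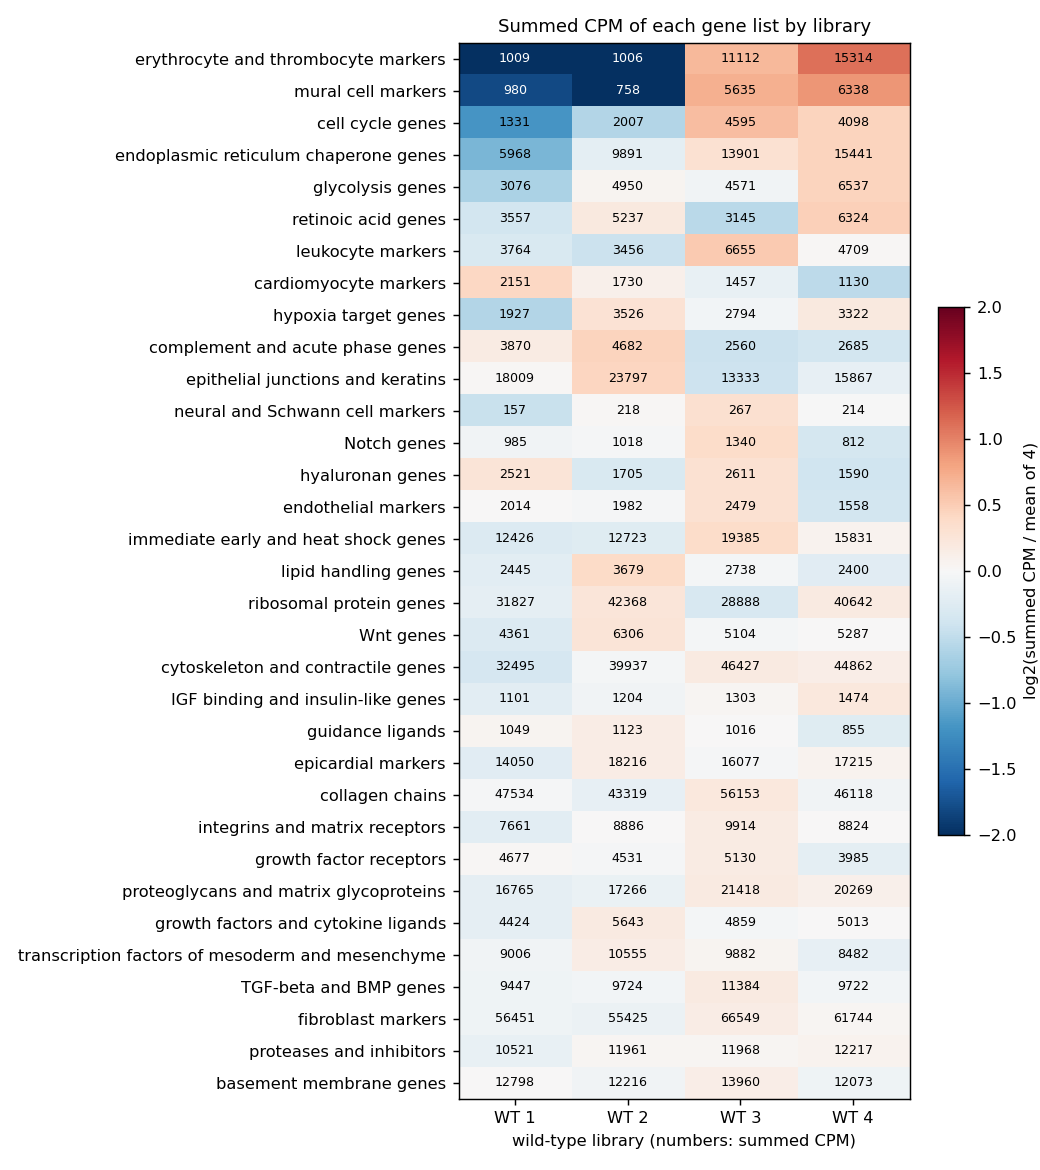
Summed CPM of each gene list, printed in each cell for the 4 wild-type libraries and coloured by log2 of its ratio to the list's mean, with lists ordered from the widest to the narrowest ratio of highest to lowest library. Under total counts, erythrocyte and thrombocyte markers (15.2-fold), mural cell markers (8.36-fold) and cell cycle genes (3.45-fold) are at the top. Basement membrane genes and proteases (both 1.16-fold) are at the bottom. The order depends on the scaling. Under TMM factors the basement membrane sums ran from 11166 to 15709, and those of cytoskeleton and contractile genes only from 39889 to 41489.5.

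Cell cycle genes also differed by library, and 38 of 55 (median 8.25 CPM) were expressed. pcna, the sliding clamp gene of DNA replication, was at 56.1, 163, 420.1 and 449 CPM. mcm2, of the replicative helicase, was at 45.2, 57.3, 373 and 289.9 CPM, and the 6 genes mcm2 to mcm7 summed to 183, 260, 1608 and 1285 CPM. mki67, a gene of all cycling phases, did not have that order and was at 33.8, 18.5, 66.1 and 29.6 CPM. top2a, of late S phase and mitosis, was at 16.2, 10.4, 32.5 and 18.6 CPM, and ccnb1, a mitotic cyclin gene, at 5.27, 1.11, 9.87 and 4.19 CPM. hmgb2a was at 234, 212, 449 and 474 CPM. tuba5, the list's gene with the most counts, was at 274, 807, 887 and 876 CPM, where WT 2 was close to WT 3 and WT 4. pcna, hmgb2a and the summed mcm genes were thus higher in WT 3 and WT 4 than in WT 1 and WT 2. For tuba5 WT 1 alone was low, and for mki67 and ccnb1 WT 1 was above WT 4. mcm3 to mcm7, mki67, top2a, ccnb1, cdk1 and plk1 were named after their values were seen. cdk1 and plk1, each on 2 rows, had 0 counts in all libraries. None of the 8 cell cycle symbols on several rows was expressed, against 38 of the 47 on 1 row.

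Endoplasmic reticulum chaperone genes were expressed in 51 of 56 (median 122 CPM) cases. Their sums were 5968, 9891, 13901 and 15441 CPM, in an order of libraries that every scaling kept. hspa5, the main chaperone gene of that compartment, was at 453, 1443, 1847 and 1786 CPM. xbp1, a factor of the unfolded protein response, was at 636, 1170.5, 1431 and 1623 CPM, and pdia3, a disulfide isomerase gene, at 535, 736, 1017 and 1358 CPM. WT 1 was the lowest library for 43 of 51 expressed members, and for 36 under each of the other scalings, beside 47.0% and 28.8% to 29.6% of all expressed genes. WT 4 was the highest for 35, and for 33 to 37 under the others, beside 30.2% and 23.8% to 28.8%.

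Immediate early and heat shock genes were expressed in 53 of 59 (median 66.4 CPM) cases. fosab, a Fos gene, was at 903, 548, 3177 and 2456 CPM, and junbb, a Jun family gene, at 788, 687, 1966 and 1513 CPM. hsp90ab1, a chaperone gene, was at 1532, 2505, 1471 and 1745 CPM. zfp36l1b, an RNA decay factor gene, was highest in WT 1 at 2288, 1678, 1735 and 1545 CPM. WT 3 was highest for 30 of the 53 expressed members under total counts and for 21 to 24 under the other scalings, beside 37.3% and 18.99% to 26.9% of all expressed genes.

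Glycolysis genes were expressed in 25 of 37 (median 14.5 CPM) cases. gapdhs was at 760.3, 1459.5, 1382 and 2229 CPM, pkma, a pyruvate kinase gene, at 293, 439, 713 and 922 CPM, and aldoaa, an aldolase gene, at 281, 413, 363 and 598 CPM. ldhba, a lactate dehydrogenase gene, was at 407, 636, 467 and 571 CPM. WT 4 was the highest library for the first 3 and WT 2 for ldhba. Over the list WT 4 was highest for 14 of 25, or 14 to 16 under the other scalings, beside 30.2% and 23.8% to 28.8% of all expressed genes. Hypoxia target genes were expressed in 24 of 32 (median 26.5 CPM) cases. higd1a, a gene of that list for a mitochondrial protein and not a mitochondrially encoded gene, was at 47.7, 225, 284 and 333 CPM. angptl4, whose protein inhibits lipoprotein lipase, was at 84.8, 105, 73.7 and 578 CPM, so WT 4 held 7.85-fold the level of WT 3 and WT 1 and WT 2 were close to WT 3. egln3, an oxygen sensor gene picked for its values, was at 4.85, 9.03, 5.27 and 53.3 CPM, also highest in WT 4. Among the most counted members, adma did not follow these and was lowest in WT 4, at 661, 1785, 522 and 362 CPM. hif1ab was at 331, 428, 518 and 465 CPM, highest in WT 3 under total counts. The hypoxia list summed to 1927, 3526, 2794 and 3322 CPM, and WT 2 had the highest sum under every scaling. WT 4 was highest for 15 of the 24 expressed members, and for 13 under each other scaling. Over all expressed genes that share was 30.2%, or 23.8% to 28.8% under the other scalings.

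Lipid handling genes were expressed in 32 of 66 (median 3.196 CPM) cases, 48.5% beside 33.9% of all symbols. fabp4a, a fatty acid binding protein gene, was at 590.0, 986, 779 and 415 CPM. lpla, the lipoprotein lipase gene, was at 346, 296, 53.4 and 61.7 CPM, with WT 1 and WT 2 above WT 3 and WT 4. lrp1ab, a lipoprotein receptor gene on 2 rows, was at 460.0, 696, 326 and 395 CPM.

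Ribosomal protein genes summed to 31827, 42368, 28888 and 40642 CPM, or 3.59% of counts. Of the 73 expressed, 54 were highest in WT 2 and 65 lowest in WT 3, and under the other scalings 64 to 67 and 71. Over all expressed genes WT 2 was highest for 21.6% and WT 3 lowest for 10.8%, or 22.4% to 25.9% and 16.5% to 22.3% under the other scalings. rps2 was at 2952, 3757, 2481 and 3451 CPM and rplp0 at 1614, 2230.1, 1473 and 2119 CPM.

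**Figure D5:**
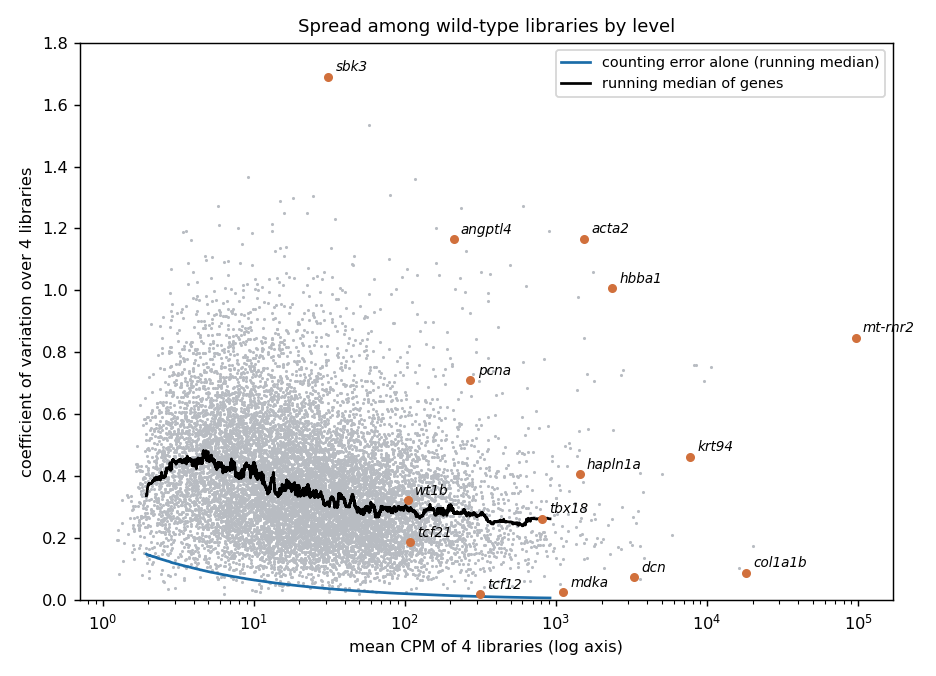
Coefficient of variation of CPM over the 4 wild-type libraries against mean CPM on a log axis, for each expressed gene, with the running median in black and the running median that counting error alone gives in blue. With levels scaled by total counts, tcf12 and mdka lie far below the running median, at 0.0185 and 0.0260. Counting error alone gives 0.0116 for tcf12 and 0.00621 for mdka. acta2, hbba1, angptl4 and sbk3 lie far above the running median.

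Across the 12762 expressed genes, the median coefficient of variation over the 4 libraries was 0.349, with quartiles of 0.242 and 0.483. Counting error alone would give a median of 0.0451, and 12699 of the genes varied by more than counting error alone gives. The median was 0.427 in 3681 genes with a mean of 1 to 10 CPM, 0.333 in 7481 genes of 10 to 100 CPM, 0.280 in the next 1512 genes by level and 0.274 in the 88 genes of highest mean. Of the expressed genes, 92 varied by more than their mean. Pairs of libraries differed in how far apart they were. Under total counts, 296 genes (2.32%) were at least 4-fold apart between WT 3 and WT 4 and 416 (3.26%) between WT 1 and WT 2. In the 4 other pairs it was 607 to 922 genes (4.76% to 7.22%). At 2-fold the same division did not hold. The numbers were 2127 between WT 3 and WT 4, 2847 between WT 1 and WT 2 and 2825 between WT 2 and WT 3. Pairs were not counted under the other scalings.

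Spread was ranked by the SD of log2 CPM among 9066 genes with a mean of 10 CPM or more, and clone-based symbols were passed over. The genes of smallest spread depended on the scaling, since none of the 10 under total counts was among the 10 under TMM factors, DESeq2 size factors or totals without mitochondrially encoded genes. Under total counts they included tcf12, mhc1zea and nrip1b. tcf12, whose protein is an E-protein partner of factors of the tcf21 class in mammals, was at 316, 308, 323 and 317 CPM. mhc1zea, a class I antigen-presenting gene, was at 99.4, 101, 105 and 100.3 CPM, and nrip1b, a nuclear receptor corepressor gene, at 49.8, 49.0, 50.4 and 48.4 CPM. The others were ctdsp1, spoplb, gkap1, micu2, cnsta, vezf1b and mdka. The SD of log2 CPM of tcf12 was 0.03 under total counts and 0.20 to 0.21 under the other scalings. All 10 were found by ranking on the spread itself.

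Of the 10 genes of largest spread, 9 or 10 were shared with the other scalings. They were acta2, hbaa2, myh11a, matn4, emid1, myocd, pi15b, cnn1b, sbk3 and rbp2a. myocd, a coactivator of smooth muscle genes, was at 2.17, 5.195, 159 and 146 CPM. cnn1b, a calponin gene of smooth muscle, was at 1.06, 2.43, 51.3 and 75.9 CPM. matn4, a matrilin gene of the matrix, was at 23.9, 3.96, 409.7 and 585 CPM, and emid1, another matrix gene, at 17.5, 4.64, 235 and 223 CPM. pi15b, a peptidase inhibitor gene, was at 2.00, 3.92, 90.9 and 84.1 CPM. In 9 of the 10, WT 3 and WT 4 were the highest libraries. sbk3, a kinase gene, differed from those in that WT 4 alone was high, at 1.02, 2.13, 11.7 and 109.9 CPM. All 10 were found by ranking on spread over these same 4 libraries, so an order shared with acta2 and myh11a is no separate result. hbaa2, a globin gene, is among those high in WT 3 and WT 4. The part of mural cells in the levels of the genes other than acta2 and myh11a was not tested.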

How the data were processed

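Bulk RNA-seq libraries were made with SMART-Seq v4 and Nextera XT, per the labels' protocols, a chemistry that does not mark strand, so overlapping antisense genes cannot be told apart. The submitters' processing notes name cutadapt 5.2, STAR 2.7.11a, HTSeq and the build GRCz11. Their settings and annotation are not stated in the sources used here. The authors deposited raw counts of reads, with 53709 rows per library, each named by a gene symbol.

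Rows that differ by an added number were summed, and counts were divided by the library total to give CPM. No groups were compared, so no test between groups was made. Spread is the SD or coefficient of variation over 4 libraries, with the calculation tested on simulated data. Pairs of libraries were compared by a chi-square test of counts (scipy 1.17.1). Other scalings were TMM factors (edgeR 4.0.16), DESeq2 1.42.0 size factors and totals without mitochondrially encoded genes. Shares of a library's counts have 95% Wilson intervals of at most 0.0193 percentage points to either side. These intervals and the floor of 3 counts cover counting error only, since reads carry no molecular identifiers.

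The 33 gene lists hold 1698 entries, of which 1658 had a row, 30 of them through a RefSeq synonym. The members and lists were chosen with earlier results of these data known. Genes are named by a rule. It takes the markers, the 30 most counted genes, the mitochondrially encoded genes, the 4 most counted expressed members of each list, and the 10 of largest and of smallest spread. Other genes are said to be named after their values were seen. Not every gene that the rule takes is given a level above, and cmlc1, ramp2 and klf2b are among those left out.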

Additional observations from a re-analysis of the deposited data

Results flagged for a closer look

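In 220 checks of a gene or list over the 4 libraries, 14 had 1 library whose gap to the nearest other library, as a share of the whole range, was above Dixon's 95% critical value for 4 samples. In these 14 the gap took 0.837 to 0.962 of the range. The checks used levels scaled by total counts only, so a library apart here may not be apart under another scaling. Chance alone gives about 1 in 20 at that value for independent checks of normally distributed values. Some genes here were picked by their spread over the same libraries, and list sums overlap with their members. The 14 can therefore not be set against that rate. In WT 4, the level was apart for angptl4 at 578 CPM, sbk3 at 109.9 CPM, wt1b at 154 CPM, lama4 at 1287 CPM and coro1a at 0.306 CPM. The coro1a value is only 6 counts on 2 rows, under the limit of repeated symbols. In WT 2 it was apart for cebpa at 1488 CPM, rspo3 at 1125 CPM and spoplb at 67.3 CPM, the last of these a gene with a narrow range under total counts. In WT 1 it was apart, on the low side, for dkk3b at 456 CPM, tuba5 at 274 CPM and the summed protease and inhibitor genes at 10521 CPM. In WT 3 it was apart for col5a2a at 2401 CPM, alas2 at 0.421 CPM and the summed TGF-beta and BMP genes at 11384 CPM. The alas2 value is 12 counts on 2 rows, under the limit of repeated symbols. Under each of the 3 other scalings WT 1, not WT 3, was highest for the TGF-beta and BMP sum. Under TMM factors that sum was 11596.6, 9914.8, 9834.9 and 8991.4. The low protease and inhibitor sum of WT 1 depended on the scaling. Under each of the 3 other scalings WT 1 was the highest library for that sum. Under TMM factors it was 12915, 12195.9, 10339.3 and 11298.5. WT 1 carried the largest mitochondrial share, 30.8% of counts, and its part in the 3 low levels of that library was not tested.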

How the results depend on the processing

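The number of expressed genes, 12762, ranged from 9171 at a threshold of 5 CPM to 14150 at 1 CPM in at least 3 libraries, and from 12870 to 13198 when 1 library was left out. The share of counts in the 10 most counted genes, 20.3% on average, was 10.6% without mitochondrially encoded genes and 15.3% to 23.0% with 1 library left out. The median spread among libraries, 0.349, was 0.321 under TMM factors, 0.322 under DESeq2 size factors, 0.309 at a threshold of 5 CPM and 0.400 over symbols with 1 count or more in every library. It was 0.299 to 0.354 with 1 library left out, lowest without WT 1. The cause of these shifts was not tested. Of the 10 genes of smallest spread under total counts, 0 were among the 10 under each of the other 3 scalings, and of the 10 of largest spread 9, 9 and 10 were, a comparison added after seeing the data. All 6 pairs of libraries also differed with rows as deposited, an alternative chosen after seeing the data.

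Without mitochondrially encoded genes, 15 of 33 list sums and 40 of 167 named genes moved by more than 1 SD, to 1.06 to 1.28 times their level over all named genes, which the smaller total gives. With the plain symbol's row alone, 8 named genes moved by more than 1 SD. Among them were tcf21, from 107 to 79.7 CPM, krt8, from 1711 to 1143 CPM, and krt4, from 2222 to 1674 CPM. By more than 1.5 times, rgs5a went from 354 to 68.5 CPM, igf2b from 116 to 64.5 CPM and tnfaip6 from 54.0 to 9.89 CPM. So did rbp2a, from 15.8 to 0.0958 CPM, and mpl, from 4.59 to 0.485 CPM. At very low levels, alas2 went from 0.118 to 0.0391 CPM and mpz from 0.167 to 0 CPM.

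Leaving out 1 library moved these means by over 1.5 times. Without WT 4, acta2 was at 871 CPM, hbba1 at 1555, hbaa1 at 1029, hbba2 at 423, hbaa2 at 248, cahz at 416, matn4 at 146, angptl4 at 87.9, cnn1b at 18.3 and sbk3 at 4.95. The erythrocyte and thrombocyte sum was 4376. Without WT 3, myh11a was at 316 CPM, myocd at 51.3, pi15b at 30.004 and mpx at 4.73. Without WT 2, adma was at 515 CPM and rbp2a at 6.78. Without WT 1, mt-rnr2 was at 57866 CPM and 9 other mitochondrially encoded genes moved likewise. Genes under 2 CPM on average moved too (elavl3, alas2, coro1a, mpz, sox10 and mpeg1.1).

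An order of genes per length was planned and not run, since the tables used here hold no transcript lengths. No paired analysis was possible because only wild-type libraries were used and no groups were compared.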

Other observations

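A few more genes had 1 or 2 libraries unlike the rest and were named after their values were seen. igfbp1a, an insulin-like growth factor binding protein gene, was at 10.9, 8.69, 169 and 226 CPM, with WT 3 and WT 4 high. igf1, the growth factor gene itself, was at 0.936, 0.170, 6.71 and 11.03 CPM, also with WT 3 and WT 4 high. serpinh1b, the collagen chaperone gene, had its own order, at 128, 605, 389 and 62.2 CPM, although 35 of 51 expressed chaperone genes of the endoplasmic reticulum were highest in WT 4, beside 30.2% of all expressed genes. Its lowest library was WT 4, while col1a2 was close to its mean there at 15848, 14144, 18229 and 16485 CPM.

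A pair of macrophage genes did not share an order. marco, a scavenger receptor gene, was at 124, 53.3, 613 and 284 CPM, whereas csf1ra, a growth factor receptor gene of macrophages, was at 89.6, 36.0, 20.2 and 131 CPM. lyz, the lysozyme gene, was on 3 rows and was at 0, 0, 27.3 and 0.306 CPM, so WT 3 held nearly all of its counts.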
